A study of Mus musculus with 18 samples.

Results

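The 33 genes described here encode enzymes and regulators of cholesterol and fatty acid synthesis. They were taken as a fixed list of gene symbols from the 55291 symbols of the deposited tables. Of the 33 genes, 7 belong to the mevalonate branch, 3 lead from farnesyl diphosphate to lanosterol and 8 from lanosterol to cholesterol. Another 5 control the sterol sensor, 3 act in sterol transfer, esterification or removal, and 7 make, elongate or desaturate fatty acids. The RNA came from the right hippocampus of wild-type C57BL/6J male mice that all received RiboTag AAV at 6 weeks of age. This virus (AAV_DJ-GfaABC1D-EGFP-Rpl10a, 1 μL into CA3) expresses a GFP-tagged ribosomal protein under an astrocyte promoter, and an anti-GFP antibody then pulls down translating ribosomes with their mRNA (TRAP). The KA group received 50 nL of 20 mM kainic acid (KA), a glutamate receptor agonist, in the dentate gyrus once 2 weeks had passed from virus injection, with tissue taken for RNA 14 days after KA. The AAV control group received the AAV alone, with RNA collected 2 weeks after it, and the PBS group received phosphate-buffered saline after the AAV, at times not given in the sources used here. Each group held 3 samples, each a homogenate pooled from 3 to 4 mice, and each homogenate gave an immunoprecipitated library (IP) and a library of total hippocampal RNA (input). The virus labels cells around CA3 and any cell that uses this promoter, while input is RNA of the whole right hippocampus. In the KA against AAV control comparison, KA, the second injection and the longer time after AAV cannot be told apart.

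Cells build cholesterol from acetyl-CoA through mevalonate, isoprenoid diphosphates, squalene and lanosterol, and the last steps reduce and rearrange the sterol ring and side chain. Transcription of these enzymes and of many fatty acid enzymes is driven by the sterol regulatory element-binding proteins, which Scap carries out of the endoplasmic reticulum when sterols are low and which the Insig proteins hold back when sterols are high. In the adult brain, cholesterol is made locally, with astrocytes and oligodendrocytes as main producers, and astrocytes export it to neurons on apolipoprotein E particles.

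Upstream sequences are shown as description, and a link between them and the changes in IP was not tested. RefSeq (GRCm38.p6) gave a promoter window of 300 bases, from 250 before to 50 after the start, for 26 of the 33 members. The 160 bases before the start follow for the 6 members with a window that had the largest falls in KA IP against the AAV control, read 5′ to 3′ on the strand of the gene. Capitals mark matches to CCAAT, the box bound by NF-Y, on either strand (ATTGG on the other), and to TCACNCCAC, a form of the sterol regulatory element.
Hmgcs1 (chr13:119690191-119690350, plus strand): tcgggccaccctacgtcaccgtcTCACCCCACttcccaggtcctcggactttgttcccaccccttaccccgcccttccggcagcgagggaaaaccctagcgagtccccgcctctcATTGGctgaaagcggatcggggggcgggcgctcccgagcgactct
Tm7sf2 (chr19:6067851-6068010, minus strand): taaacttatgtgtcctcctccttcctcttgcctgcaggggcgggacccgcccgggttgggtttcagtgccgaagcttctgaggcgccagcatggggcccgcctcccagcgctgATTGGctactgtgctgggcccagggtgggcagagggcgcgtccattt
Msmo1 (chr8:64733579-64733738, minus strand): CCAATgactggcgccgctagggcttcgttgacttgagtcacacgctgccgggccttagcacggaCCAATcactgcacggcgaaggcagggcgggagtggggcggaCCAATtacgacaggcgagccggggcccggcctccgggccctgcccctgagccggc
Cyp51 (chr5:4104698-4104857, minus strand): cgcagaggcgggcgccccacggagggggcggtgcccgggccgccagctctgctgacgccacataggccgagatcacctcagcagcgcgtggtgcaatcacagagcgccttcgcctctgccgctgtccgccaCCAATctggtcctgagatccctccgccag
Idi1 (chr13:8885446-8885605, plus strand): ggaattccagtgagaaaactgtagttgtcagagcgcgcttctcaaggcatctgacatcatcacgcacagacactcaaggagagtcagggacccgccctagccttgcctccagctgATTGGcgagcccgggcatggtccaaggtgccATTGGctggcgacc
Fads2 (chr19:10101504-10101663, minus strand): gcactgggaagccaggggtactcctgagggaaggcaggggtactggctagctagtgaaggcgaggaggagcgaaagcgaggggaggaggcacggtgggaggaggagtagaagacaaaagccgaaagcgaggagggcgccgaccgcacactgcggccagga
Hmgcs1 was the only member with a TCACNCCAC match, which begins 137 bases before its start and does not overlap a CCAAT match. Over all windows of these genes, 1 of 26 members (3.85%) held TCACNCCAC, against 1.44% of 27025 genes with a window. CCAAT on either strand was found in 21 of 26 members (80.8%), against 41.1% of the 27025 genes, which were not limited to genes tested here. The 5 members without it were Acaca, Acat2, Elovl6, Fads2 and Scap. Of these, Acat2 and Fads2 passed the test below as lower in KA IP than in AAV control IP. Ebp and Hsd17b7 held CCAAT and did not pass it. By the gene models of GENCODE, the stretches of Tm7sf2, Msmo1 and Fads2 lie within the annotated gene, those of Cyp51 and Idi1 lie partly within it, and that of Hmgcs1 lies upstream.

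The 18 libraries held 7991681 to 16032180 counts. A member was tested where its level was above 1 FPKM (fragments per kilobase of exon scaled to the library total, a unit adjusted for gene length) in all libraries compared, which 32 of 33 members passed in every comparison. Fdps, which makes farnesyl diphosphate, failed it with 7 to 56 counts, equal to 0.152 to 1.27 FPKM, per library. It shares 26.7% of its exon bases with another gene on the same strand, Gm43738, listed at 0 to 2 counts, and is not compared. A member is called higher or lower at an adjusted p under 0.05 in edgeR's quasi-likelihood test, and fold changes are on the log2 scale with their SE. Run 1 of the sequencer held KA #1 and #2 with AAV control #1 and #2, run 2 held #3 of both groups, and run 3 held all PBS samples, so the PBS group and run 3 cannot be told apart. In bulk samples, fewer cells of a type and less RNA per cell cannot be told apart.

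In IP, all tested enzymes of the sterol pathway up to lanosterol were lower in the KA group than in the AAV control group. From lanosterol to cholesterol 5 of 8 were. Of 32 members tested, 18 were lower and 1, Elovl6, was higher, where 9.74% of 9729 genes tested were lower and 10.4% higher. The median log2 fold change of the members was -0.94, against -0.02 over all genes tested. With the additional requirement of a 2-fold change, 15 members were lower and 0 higher, where 5.22% of genes were lower and 6.39% higher. Against the PBS group, 18 members were lower and 1, Srebf1, was higher, where 18.9% of 9847 genes were lower and 18.2% higher. The median log2 fold change of the members was then -0.68, against -0.01 over all genes tested, and 8 members were at least 2-fold lower and 0 higher, where 9.34% and 8.08% of genes were. Both comparisons used the same KA libraries.

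**Figure D1:**
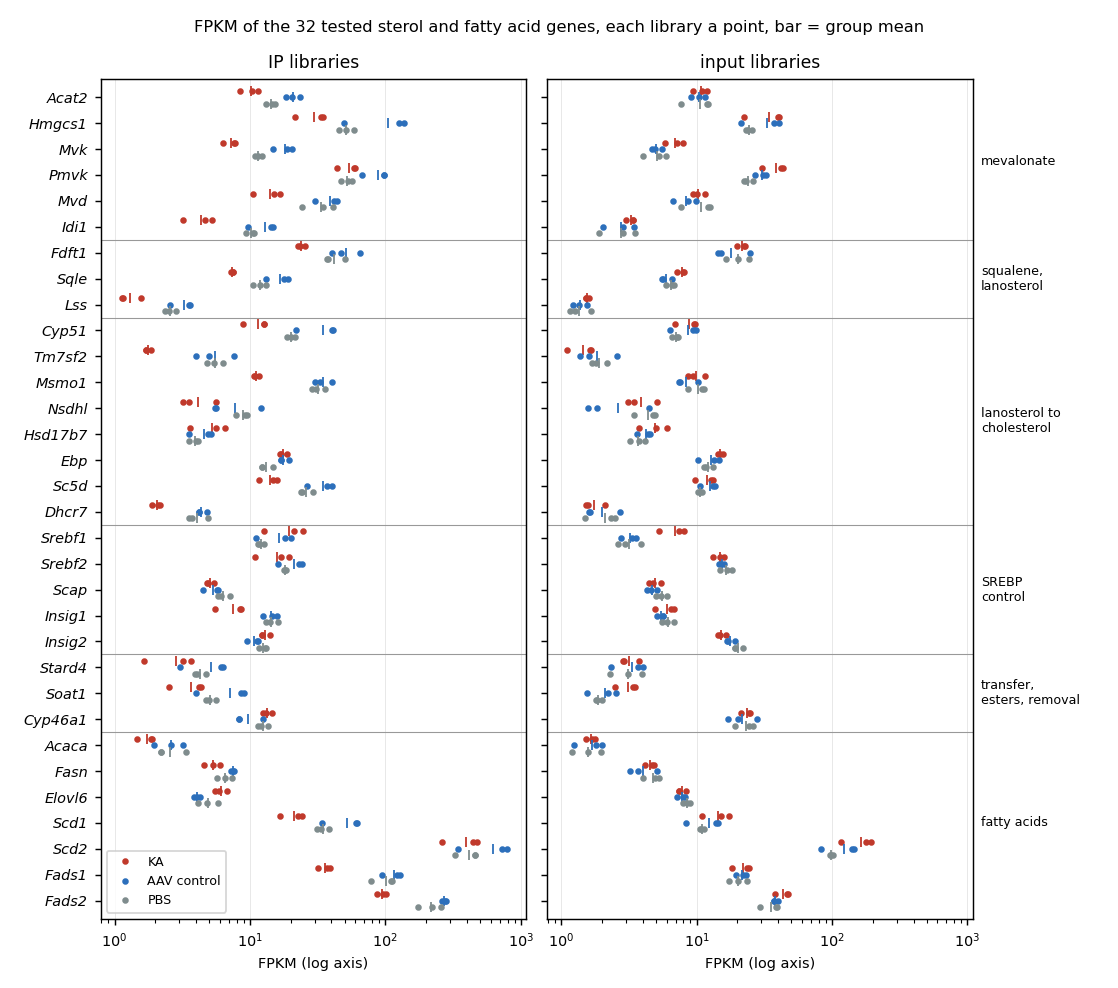
FPKM of the 32 tested members in IP (left) and input (right) libraries on a log axis, with 1 point per library, a bar at the mean of each group of 3, and red for KA, blue for AAV control and grey for PBS. In IP the red points lie left of the others for most members, and in input the 3 colours overlap for most.

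Enzymes of the mevalonate branch were lower in KA IP for all 6 tested members against the AAV control, and at 4 of 6 against PBS. Hmgcs1, which condenses acetyl-CoA units to HMG-CoA, stood at 34.4, 33.6 and 21.5 FPKM in KA IP, 127, 137 and 49.3 in AAV control IP and 58.3, 51.5 and 45.1 in PBS IP. Its log2 fold change was -1.74 ± 0.34 (SE, adjusted p = 0.0126) against the AAV control and -0.82 ± 0.22 (SE, adjusted p = 0.0148) against PBS. All KA values lay below all control values, and the AAV control library #3 was far below #1 and #2. Idi1, the isomerase that gives dimethylallyl diphosphate, had 4.64, 5.204 and 3.20 FPKM in KA IP, 14.8, 14.4 and 9.69 in AAV control IP and 9.42, 10.6 and 10.8 in PBS IP. It fell by 1.52 ± 0.20 on the log2 scale against the AAV control (adjusted p = 0.00269) and by 1.25 ± 0.20 against PBS (adjusted p = 0.00111), with no overlap of KA and either control. Mvd, the mevalonate diphosphate decarboxylase, measured 16.7, 15.03 and 10.6 FPKM in KA IP, 41.5, 30.4 and 44.1 in AAV control IP and 24.4, 41.3 and 34.9 in PBS IP, with log2 fold changes of -1.43 ± 0.23 (SE, adjusted p = 0.00523) and -1.27 ± 0.24 (SE, adjusted p = 0.00286). The highest KA value of Mvd was below the lowest value of both control groups.

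Mevalonate kinase, Mvk, was at 7.79, 7.57 and 6.34 FPKM in KA IP, 20.6, 18.7 and 14.8 in AAV control IP and 11.4, 12.3 and 10.9 in PBS IP. This gave a log2 fold change of -1.26 ± 0.16 (SE, adjusted p = 0.002) against the AAV control and -0.69 ± 0.18 (SE, adjusted p = 0.0152) against PBS. The PBS values of Mvk sat between those of the other groups without touching either. Phosphomevalonate kinase, Pmvk, was at 59.98, 59.1 and 43.8 FPKM in KA IP, 98.2, 97.9 and 66.7 in AAV control IP and 53.4, 56.6 and 47.2 in PBS IP. It was lower against the AAV control only, with -0.63 ± 0.18 (SE, adjusted p = 0.0404), and against PBS the log2 difference was 0.03 ± 0.19 (SE, adjusted p = 0.913). All 3 PBS values of Pmvk fell inside the KA range. Acat2, the cytosolic thiolase at the head of the branch, was at 10.4, 11.6 and 8.50 FPKM in KA IP, 23.2, 20.6 and 18.6 in AAV control IP and 14.5, 15.4 and 13.1 in PBS IP, with -0.98 ± 0.15 (SE, adjusted p = 0.00482) against the AAV control and -0.52 ± 0.19 (SE, adjusted p = 0.0533) against PBS. KA values of Acat2 lay below all values of both controls although the second comparison missed the threshold.

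The 3 enzymes that make squalene and lanosterol were lower in KA IP in both comparisons. Squalene synthase, Fdft1, stood at 22.5, 23.5 and 25.5 FPKM in KA IP, 46.8, 40.4 and 65.4 in AAV control IP and 37.2, 50.4 and 38.02 in PBS IP, with log2 fold changes of -1.05 ± 0.26 (SE, adjusted p = 0.0272) and -0.82 ± 0.23 (SE, adjusted p = 0.0165) against the AAV control and PBS. Of the exon bases of Fdft1, 18.3% are shared with Ctsb on the opposite strand, and the library kit does not mark strand, so reads of the 2 genes cannot be told apart there. Sqle, the squalene epoxidase and a rate-limiting step of the sterol part of the pathway, was at 7.47, 7.48 and 7.26 FPKM in KA IP, 18.9, 17.9 and 13.1 in AAV control IP and 13.1, 11.8 and 10.5 in PBS IP. Its 3 KA values were almost equal and below every control value, with -1.10 ± 0.16 (SE, adjusted p = 0.00376) against the AAV control and -0.68 ± 0.18 (SE, adjusted p = 0.0141) against PBS. Lss, which closes squalene epoxide to lanosterol, was low in FPKM throughout, at 1.16, 1.58 and 1.14 FPKM in KA IP, 3.56, 3.64 and 2.58 in AAV control IP and 2.83, 2.38 and 2.53 in PBS IP, and differed by -1.27 ± 0.19 (SE, adjusted p = 0.00412) and -1.0 ± 0.19 (SE, adjusted p = 0.00305).

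From lanosterol to cholesterol, 5 of 8 members were lower in KA IP against the AAV control and 6 of 8 against PBS. Msmo1, the C4-methyl sterol oxidase, had 10.95, 10.8 and 11.6 FPKM in KA IP, 33.1, 30.5 and 40.5 in AAV control IP and 30.8, 36.1 and 28.9 in PBS IP. The fall was -1.60 ± 0.21 (SE, adjusted p = 0.00269) against the AAV control and -1.53 ± 0.21 (SE, adjusted p = 5.07e-04) against PBS, so nearly equal sizes were fitted with either baseline. Tm7sf2, a sterol C14 reductase, stood at 1.71, 1.70 and 1.84 FPKM in KA IP, 4.95, 4.01 and 7.57 in AAV control IP and 4.82, 6.32 and 5.47 in PBS IP, with -1.62 ± 0.31 (SE, adjusted p = 0.0106) and -1.66 ± 0.22 (SE, adjusted p = 4.50e-04). In Tm7sf2, 12.1% of exon bases are shared with Vps51 on the same strand. Cyp51, the lanosterol 14-demethylase, was at 12.8, 12.6 and 8.89 FPKM in KA IP, 40.6, 41.03 and 21.8 in AAV control IP and 20.02, 21.7 and 18.8 in PBS IP. Its difference was -1.53 ± 0.23 (SE, adjusted p = 0.00442) against the AAV control and -0.84 ± 0.19 (SE, adjusted p = 0.0062) against PBS, and its lowest AAV control library was again #3.

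Sc5d, the lathosterol desaturase, had 14.9, 15.96 and 11.7 FPKM in KA IP, 40.3, 37.1 and 26.3 in AAV control IP and 29.3, 24.1 and 23.8 in PBS IP, and log2 fold changes of -1.23 ± 0.18 (SE, adjusted p = 0.00372) and -0.87 ± 0.18 (SE, adjusted p = 0.00424). Dhcr7, the last reductase of 1 arm of the pathway, was at 2.18, 2.08 and 1.90 FPKM in KA IP, 4.19, 4.17 and 4.80 in AAV control IP and 3.71, 4.89 and 3.52 in PBS IP, with -1.05 ± 0.18 (SE, adjusted p = 0.00721) and -0.997 ± 0.23 (SE, adjusted p = 0.00662). For both, the KA range ended below the range of either control. Nsdhl, the C4 sterol dehydrogenase, was at 3.53, 3.20 and 5.66 FPKM in KA IP, 5.56, 5.61 and 12.1 in AAV control IP and 9.19, 7.89 and 9.45 in PBS IP. It was called lower against PBS, with -1.07 ± 0.26 (SE, adjusted p = 0.00954), and missed the threshold against the AAV control, with -0.87 ± 0.43 (SE, adjusted p = 0.197). KA and AAV control values of Nsdhl overlapped, since KA #3 exceeded AAV control #1 and #2. Ebp, the sterol isomerase, and Hsd17b7, the ketosteroid reductase of the same complex of steps, passed the threshold in neither comparison, with 0.04 ± 0.15 and 0.26 ± 0.21 against the AAV control and 0.41 ± 0.19 and 0.41 ± 0.21 against PBS.

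Among the 5 genes of SREBP control, Insig1 was lower in both comparisons and Srebf1 higher in 1. Insig1, itself a known SREBP target that retains Scap, was at 8.54, 8.41 and 5.52 FPKM in KA IP, 14.5, 15.9 and 12.4 in AAV control IP and 14.04, 15.99 and 13.2 in PBS IP, and was lower by -0.88 ± 0.17 (SE, adjusted p = 0.012) and -0.97 ± 0.21 (SE, adjusted p = 0.00499). Srebf1, which encodes the SREBP that favours fatty acid genes, was at 24.5, 20.99 and 12.6 FPKM in KA IP, 20.2, 18.2 and 11.1 in AAV control IP and 11.6, 12.8 and 11.6 in PBS IP. It was higher against PBS, at 0.67 ± 0.22 (SE, adjusted p = 0.0357), while the difference from the AAV control was 0.28 ± 0.25 (SE, adjusted p = 0.476). KA and AAV control values of Srebf1 overlapped, and the lowest KA library, #3, lay within the PBS range. Srebf2, which encodes the SREBP that favours cholesterol genes, was at 19.3, 17.1 and 10.9 FPKM in KA IP, 24.4, 23.2 and 16.1 in AAV control IP and 18.6, 18.01 and 17.7 in PBS IP and passed no threshold (-0.38 ± 0.21 and -0.22 ± 0.20). The same was true of Scap, the escort protein, with -0.02 ± 0.15 and -0.33 ± 0.16, and of Insig2, the second retention protein, with 0.33 ± 0.17 and 0.05 ± 0.17.

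Sterol handling genes did not pass the threshold in IP with 3 samples per group. Soat1, which esterifies cholesterol, was at 4.35, 4.18 and 2.54 FPKM in KA IP, 8.58, 8.98 and 3.97 in AAV control IP and 5.63, 4.76 and 4.95 in PBS IP, with -0.90 ± 0.29 (SE, adjusted p = 0.064) and -0.49 ± 0.20 (SE, adjusted p = 0.0712). Stard4, a cytosolic sterol carrier, had log2 differences of -0.80 ± 0.31 (SE, adjusted p = 0.113) and -0.62 ± 0.26 (SE, adjusted p = 0.0825). Cyp46a1, the cholesterol 24-hydroxylase of neurons, had 0.52 ± 0.25 and 0.13 ± 0.18, and its KA range of 12.6 to 14.6 FPKM lay above the AAV control range of 8.24 to 12.5 FPKM by a small margin.

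Of the 7 fatty acid genes, 3 were lower and 1 higher in KA IP against the AAV control, and 4 lower and 0 higher against PBS. The 2 front-end desaturases of polyunsaturated fatty acids showed the largest falls of this group. Fads2, the delta-6 desaturase, was at 101, 95.9 and 87.1 FPKM in KA IP, 274, 278 and 262 in AAV control IP and 221, 259 and 174 in PBS IP, and Fads1, the delta-5 desaturase, at 36.8, 38.7 and 32.02 FPKM in KA IP, 129, 121 and 94.6 in AAV control IP and 110.2, 113 and 78.8 in PBS IP. Fads1 changed by -1.62 ± 0.18 (SE, adjusted p = 0.00115) and -1.51 ± 0.25 (SE, adjusted p = 0.00131), and Fads2 by -1.47 ± 0.18 (SE, adjusted p = 0.00182) and -1.23 ± 0.27 (SE, adjusted p = 0.00526). The KA values of both lay below every control value. Scd1, a stearoyl-CoA desaturase, was at 24.4, 22.7 and 16.7 FPKM in KA IP, 61.1, 61.97 and 34.02 in AAV control IP and 38.6, 33.5 and 31.5 in PBS IP, with -1.23 ± 0.23 (SE, adjusted p = 0.00979) and -0.71 ± 0.19 (SE, adjusted p = 0.0148). Its paralogue Scd2, at 471, 440.2 and 263 FPKM in KA IP, 728, 787 and 346 in AAV control IP and 463, 458 and 328 in PBS IP, had the highest FPKM of the members in IP and passed neither test, with -0.60 ± 0.33 and -0.13 ± 0.34. The 3 groups of Scd2 overlapped, and library #3 was the lowest in each. Gene models of GENCODE on GRCm38 place Fads1 on chromosome 19 at 10182888 to 10196877 (plus strand) and Fads2 at 10062765 to 10101746 (minus strand). Scd1 lies on the same chromosome at 44394455 to 44407879 (minus strand) and Scd2 at 44293674 to 44306864 (plus strand). How reads that fit several genes were counted is not given in the sources used here, so the split between these close paralogues is uncertain.

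Acaca, the acetyl-CoA carboxylase that commits carbon to fatty acids, was at 1.85, 1.91 and 1.48 FPKM in KA IP, 2.61, 3.23 and 1.96 in AAV control IP and 2.20, 2.20 and 3.36 in PBS IP. Its KA values lay below every control value, and it was called against PBS, with -0.56 ± 0.18 (SE, adjusted p = 0.0331), and not against the AAV control, with -0.51 ± 0.18 (SE, adjusted p = 0.0817). Fasn, the fatty acid synthase, had -0.44 ± 0.15 (SE, adjusted p = 0.0707) and -0.32 ± 0.19 (SE, adjusted p = 0.218). Elovl6, which elongates saturated and monounsaturated C16 chains, went the other way, at 6.77, 5.94 and 5.52 FPKM in KA IP, 4.04, 4.24 and 3.87 in AAV control IP and 4.79, 4.11 and 5.84 in PBS IP. It rose by 0.64 ± 0.15 (SE, adjusted p = 0.0208) against the AAV control, and the difference from PBS was 0.32 ± 0.16 (SE, adjusted p = 0.145), with the highest PBS library inside the KA range.

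**Figure D2:**
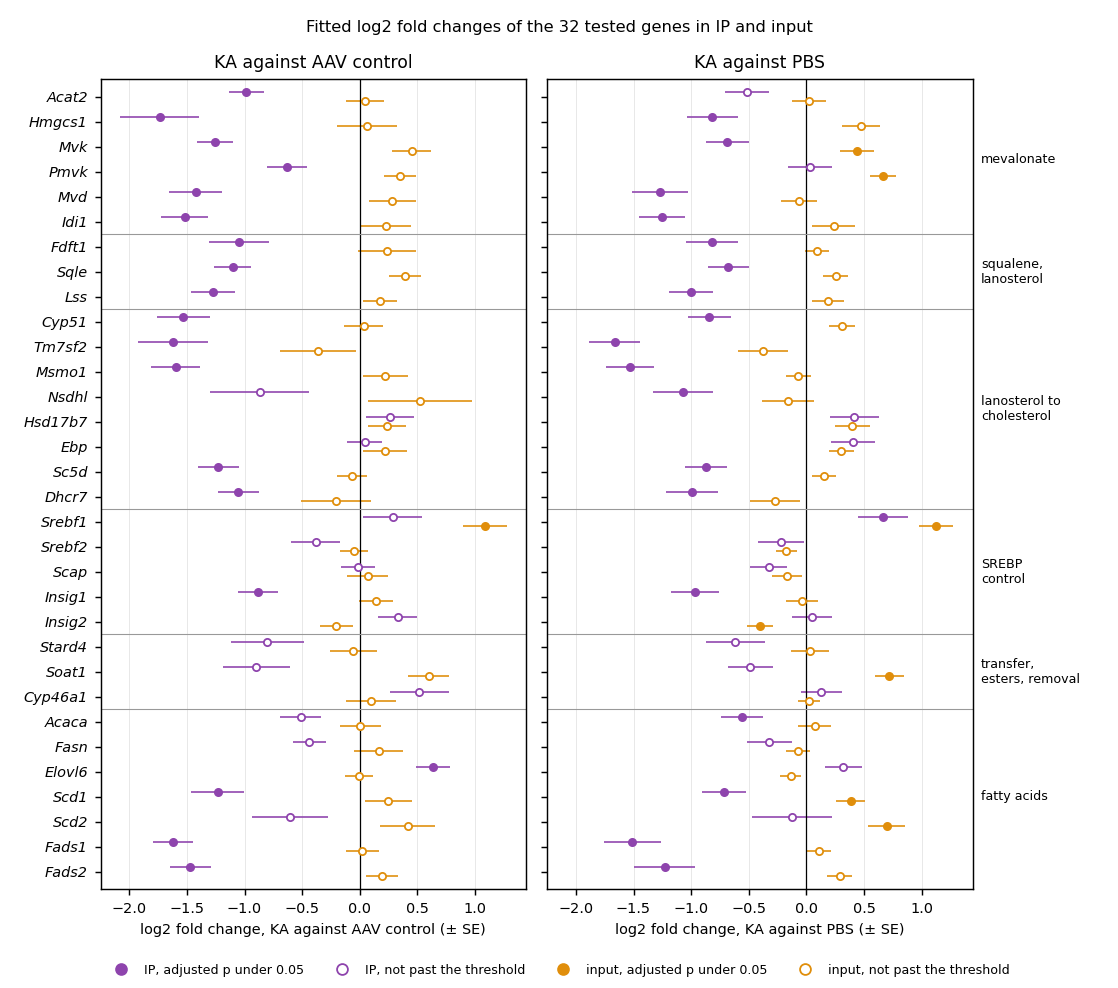
Log2 fold changes with SE bars of KA against AAV control (left) and against PBS (right), in IP (purple) and input (orange), with filled points for an adjusted p under 0.05. In IP 18 filled points lie below 0 in each panel and 1 above 0, and in input the filled points number 1 on the left and 7 on the right.

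For 20 of 32 members every KA IP value lay below every AAV control value, where 20.2% of genes tested did so, and for 3 every KA value lay above, where 16.8% did. Against PBS the members numbered 22 below and 1 above, where 23.3% and 22.7% of genes did so. Same-numbered KA and AAV control libraries share a sequencing run. Taken pair by pair, KA was below for 27, 27 and 25 of 32 members, with median log2 FPKM ratios of -0.96, -0.88 and -1.06. The share over all genes was not taken for these pairs, so the counts only describe the members. The 18 members called lower, which these libraries chose, were below in all 3 pairs. With the replicate number as a block, since same-numbered KA and AAV control libraries deviated together, 26 members passed against the AAV control, and Acaca, Cyp46a1, Fasn, Nsdhl, Soat1, Srebf2 and Stard4 were added to the 19, where 34.5% of all genes passed. Sequencing run as a covariate gave 27, where 40.2% of all genes passed. Within run 1 alone, which was added after the data were seen, 28 members and 46.0% of all genes passed.

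PBS and AAV control IP libraries differed at 0 of 32 members by edgeR, where 0.0% of 10667 genes tested were called. DESeq2 and limma-voom also called 0 members, and DESeq2 called 16 genes. At an unadjusted p under 0.05 by edgeR, 5 of 32 members differed, where 1153 of the 10667 genes did. The lowest log2 values were -0.94 ± 0.35 for Hmgcs1, -0.70 ± 0.26 for Cyp51 and -0.67 ± 0.23 for Pmvk, and the median over members was -0.22. PBS values lay below all AAV control values for 7 members (Acat2, Cyp51, Ebp, Fads2, Mvk, Pmvk and Sqle), where 8.53% of genes did so, and above them for 1 (Insig2), where 4.88% did. Without the AAV control library #3, 6 members were called in this comparison, where 10.2% of all genes were. That library was the lowest of its group for 25 of 32 members, as was KA IP #3 in its own group. Both were in run 2, with #1 and #2 in run 1, so sample and run cannot be told apart. The share over all genes was not taken for these counts. Without AAV control #3, the number called between KA and AAV control was 24, where 33.8% of all genes were called.

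In input, total hippocampal RNA, 0 members were called lower in the KA group against the AAV control and 1 was against PBS. Against the AAV control 1 member, Srebf1, was called, and it was higher, where 3.54% of 10809 genes were higher and 0.944% lower. Srebf1 was at 8.08, 7.41 and 5.29 FPKM in KA input, 2.78, 3.33 and 3.56 in AAV control input and 2.63, 2.97 and 3.87 in PBS input, a difference of 1.08 ± 0.19 (SE, adjusted p = 0.0186) against the AAV control and 1.12 ± 0.15 (SE, adjusted p = 3.93e-04) against PBS. Every KA input value of Srebf1 exceeded every control value. The call against the AAV control was lost when KA #1, KA #2, AAV control #1 or AAV control #2 was left out, and 8 members were called without AAV control #3, or 25% of members, where 23.8% of all genes were called. With the replicate block 2 members were called (Srebf1 and Soat1, both higher), with sequencing run as a covariate 5, and within run 1 alone 15. These are 6.25%, 15.6% and 46.9% of members, where 10.2%, 16% and 41.6% of all genes were called. Input values of KA lay above all those of the AAV control for 3 members (Mvk, Sqle and Srebf1) and below for 1 (Insig2), where 12.2% and 10.4% of genes did so. The median log2 fold change of the members in input was 0.17 against the AAV control and 0.10 against PBS.

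Against PBS, 7 members were called in input, where 15.5% of 10849 genes were higher and 12.2% lower. Besides Srebf1, the higher ones were Soat1 (0.72 ± 0.13 (SE, adjusted p = 0.00225)), Scd2 (0.70 ± 0.16 (SE, adjusted p = 0.00957)), Pmvk (0.67 ± 0.11 (SE, adjusted p = 0.00196)), Mvk (0.44 ± 0.15 (SE, adjusted p = 0.0459)) and Scd1 (0.39 ± 0.13 (SE, adjusted p = 0.0421)). Insig2 was lower, at -0.40 ± 0.11 (SE, adjusted p = 0.0208). Soat1 stood at 3.50, 3.42 and 2.50 FPKM in KA input, 2.53, 2.20 and 1.54 in AAV control input and 1.83, 1.81 and 2.01 in PBS input, Scd2 at 194, 179 and 116 FPKM in KA input, 146, 139 and 83.3 in AAV control input and 98.1, 101 and 97.2 in PBS input and Pmvk at 43.2, 41.7 and 30.5 FPKM in KA input, 32.5, 30.9 and 27.1 in AAV control input and 23.2, 22.4 and 26.1 in PBS input. All KA values of these 3 exceeded all PBS values, and overlapped those of the AAV control. Mvk was at 7.89, 7.14 and 5.87 FPKM in KA input, 4.96, 4.66 and 5.53 in AAV control input and 4.02, 5.28 and 5.99 in PBS input, Scd1 at 17.4, 15.04 and 10.99 FPKM in KA input, 14.4, 14.02 and 8.42 in AAV control input and 10.6, 10.7 and 11.4 in PBS input and Insig2 at 14.3, 14.99 and 16.5 FPKM in KA input, 19.1, 17.1 and 16.9 in AAV control input and 19.1, 19.3 and 22.1 in PBS input. KA and PBS ranges of Mvk and of Scd1 overlapped at 1 library, KA #3, and those of Insig2 did not overlap. Srebf1 was the 1 member both called and at least 2-fold changed, where 4.26% of genes were higher by this rule and 1.09% lower. Without KA #3, 15 members were called in this comparison (46.9%, where 43.9% of all genes were), and in a single model of all 18 libraries 2 were, Srebf1 and Pmvk (6.25%, where 9.43% of all genes were). Between PBS and AAV control input, 0 members were called by edgeR, where 0.0% of 10924 genes were called. At an unadjusted p under 0.05 by edgeR, 1 of 32 members differed, where 901 of the 10924 genes did. DESeq2 and limma-voom also called 0 members, and DESeq2 called 30 genes. Without AAV control #3, 14 members were called (43.8%), where 36.5% of all genes were.

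Pathway mRNA was concentrated in IP over input in both control groups, and less so in the KA group. In the AAV control group the IP to input FPKM ratio, averaged over the 3 homogenates, had a median over members of 2.83, and 22 of 32 members were at 2 or more. In the PBS group the median was 2.13 with 18 members at 2 or more. In the KA group it was 1.15, and 3 members (Srebf1, Scd2 and Fads2) reached 2. The ratio exceeded 1 in all 3 homogenates for 27, 27 and 16 members of the AAV control, PBS and KA groups. By the ratio of group means, 1504 of 9847 genes were at 2 or more in the AAV control group. In the PBS group 1543 of 9729 genes were. The share over all genes was not taken for the KA group or for ratios above 1 in all homogenates, so those counts only describe the members. Fads2 had the highest mean ratio of the controls, at 7.40, 7.51 and 6.53 in AAV control homogenates, 7.57, 6.64 and 4.49 in PBS and 2.14, 2.06 and 2.30 in KA. Hmgcs1 had 3.40, 3.40 and 2.33 in the AAV control, 2.43, 2.24 and 1.76 in PBS and 0.841, 0.844 and 0.965 in KA, by FPKM below 1 in all 3 KA homogenates. By edgeR the log2 difference of IP from input for Hmgcs1 in KA was 0.02 ± 0.21 (SE, adjusted p = 0.961). Cyp46a1, Elovl6 and Insig2 were below 1 by FPKM in every homogenate of every group, and in KA edgeR called only Cyp46a1 of them lower in IP.

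By edgeR, IP was above input for 26 members and below for 3 in the AAV control group, where 19.4% of 9961 genes were above and 20.3% below. In PBS 25 members were above and 3 below, where 28.6% and 27.7% of 10401 genes were. In KA 13 were above and 1 below, where 19.1% and 15.3% of 10098 genes were, and 3 were above by at least 2-fold and 0 below, where 8.11% and 4.51% of genes were. With the homogenate as a block the KA number called became 20 (62.5%), where 52.8% of all genes were called. Leaving out 1 KA homogenate gave 5 members without #1, 3 without #2 and 19 without #3, or 15.6%, 9.38% and 59.4% of members, where 13.2%, 13.3% and 47.9% of all genes were called. Without AAV control #1 that group gave 16 members, where 16.1% of all genes were called.

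**Figure D3:**
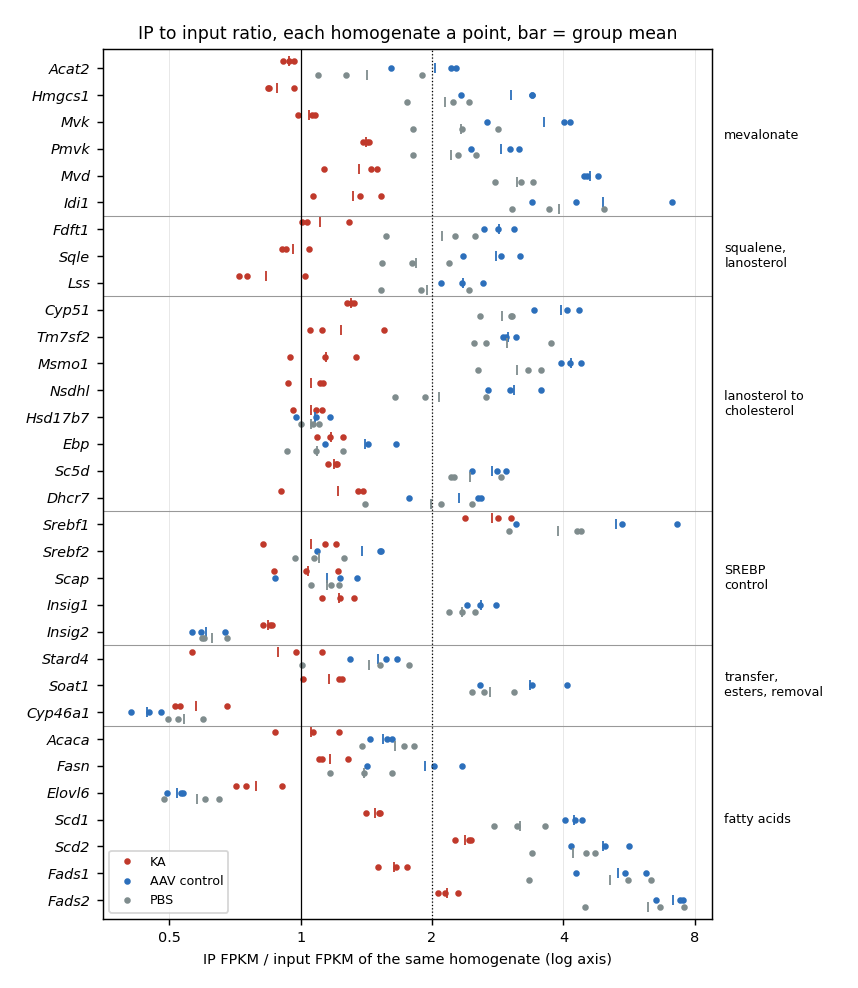
Ratio of IP to input FPKM within each homogenate on a log axis, with 1 point per homogenate and a bar at the mean of 3, red for KA, blue for AAV control and grey for PBS, and lines at 1 (solid) and 2 (dotted). The red points gather near 1 for most members, and the blue points lie highest for most, with medians over members of the mean ratio of 1.15 in KA, 2.83 in the AAV control and 2.13 in PBS.

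The difference between the KA effects in IP and in input was tested directly. With the AAV control as baseline it was called for 18 members, 17 lower in IP and Elovl6 higher, where 5.99% of 9180 genes were lower and 7.19% higher. The members with the largest differences were Msmo1 (-1.81 ± 0.29 (SE, adjusted p = 0.00213)), Hmgcs1 (-1.78 ± 0.47 (SE, adjusted p = 0.0268)), Idi1 (-1.74 ± 0.29 (SE, adjusted p = 0.00226)), Mvd (-1.70 ± 0.30 (SE, adjusted p = 0.00363)) and Mvk (-1.69 ± 0.20 (SE, adjusted p = 4.81e-04)). With PBS as baseline 17 members were called, all lower in IP, where 14.7% of 9305 genes were. The largest there were Fads1 (-1.63 ± 0.27 (SE, adjusted p = 0.0012)), Fads2 (-1.53 ± 0.28 (SE, adjusted p = 0.00213)), Idi1 (-1.50 ± 0.26 (SE, adjusted p = 0.00156)) and Msmo1 (-1.47 ± 0.24 (SE, adjusted p = 0.00102)). Soat1 was among those called in both, at -1.47 ± 0.36 (SE, adjusted p = 0.019) and -1.22 ± 0.24 (SE, adjusted p = 0.00296). Its KA difference from the AAV control was -0.90 in IP and 0.60 in input. Astrocyte markers were lower in these contrasts too, at 6 of 8 with the AAV control as baseline and 5 of 8 with PBS, and 0 were higher. Their median log2 differences were -1.32 and -1.25, against -1.08 and -0.92 for the members. Both contrasts share the KA libraries. With the homogenate as a block 27 members were called with the AAV control as baseline and 23 with PBS, where 35.8% and 37.4% of all genes were called.

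Many other genes concentrated in IP were lower in the KA group too. Of 1543 genes tested whose IP FPKM was at least 2 times input in the PBS group, which does not enter the comparison, 34.5% were lower in KA IP than in AAV control IP, with a median log2 fold change of -0.60. The 18 members among them had a median of -1.25, with 14 lower. Against PBS, with the ratio taken in the AAV control group, 33% of 1504 genes were lower with a median of -0.31, and 17 of 22 members were, with a median of -0.86.

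Markers of cell types moved with the group in IP. The 10 oligodendrocyte markers summed to 1354 to 2668 FPKM in KA IP, 231 to 1037 in AAV control IP and 249 to 564 in PBS IP, and 5 of 10 were higher in KA than in AAV control IP and 10 of 10 higher than in PBS IP. The 8 neuronal markers summed to 270.1 to 336.5 FPKM in KA IP, 134 to 163 in the AAV control and 127 to 217 in PBS, with 3 and 4 of 8 higher. Microglial markers summed to 24.0 to 45.3 FPKM in KA IP against 11.2 to 20.5 and 15.4 to 22.2 (8 genes, 4 tested, 2 higher in each comparison and P2ry12 lower against PBS), and endothelial markers to 4.65 to 6.53 against 11.3 to 17.0 and 6.29 to 19.7 (8 genes, 2 tested, 1 lower in each comparison). The sum of the 8 astrocyte markers was 5179 to 6179 FPKM in KA IP, 3129 to 4051 in the AAV control and 2873 to 4684 in PBS. Of these 8, 2 were higher than in the AAV control, 3 lower and 3 not called. Aqp4, a water channel, had 0.99 ± 0.21 (SE, adjusted p = 0.0145). Gfap, the intermediate filament of reactive astrocytes, rose by 2.49 ± 0.33 (SE, adjusted p = 0.00265) against the AAV control, while Gja1, a gap junction protein, and the glutamate transporters Slc1a2 and Slc1a3 were lower, at -1.42 ± 0.20, -1.42 ± 0.31 and -1.19 ± 0.24. Aldh1l1, a general astrocyte marker, had -0.47 ± 0.17 (SE, adjusted p = 0.0859). The part of the other cell types in the member values was not tested.

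In AAV control IP #3, where the oligodendrocyte sum was 1037 FPKM against 231 and 324 in #1 and #2, the median FPKM of the members was 12.8 against 19.1 and 17.4. In the KA group the oligodendrocyte sum was lowest in #3, at 1354 FPKM, and the member median was also lowest there, at 8.69 FPKM against 10.7 and 11.2. In both groups #3 was in run 2 and the others in run 1, so sample and run cannot be told apart. All 8 astrocyte markers were higher in IP than in input in all 3 groups. The ratio for Aldh1l1 was 3.49, 3.86 and 3.05 in KA, 10.5, 10.3 and 6.87 in the AAV control and 9.09, 8.31 and 5.08 in PBS homogenates. For Apoe, the main lipid carrier protein of astrocytes, it was 2.03, 2.31 and 2.52, 17.1, 19.5 and 7.604 and 10.8, 10.99 and 8.58. In input, 5 of 8 astrocyte markers were higher in KA than in the AAV control and 7 of 8 higher than in PBS, and microglial markers summed to 698 to 1231 FPKM in KA and to 77.8 to 129 in the controls.

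**Figure D4:**
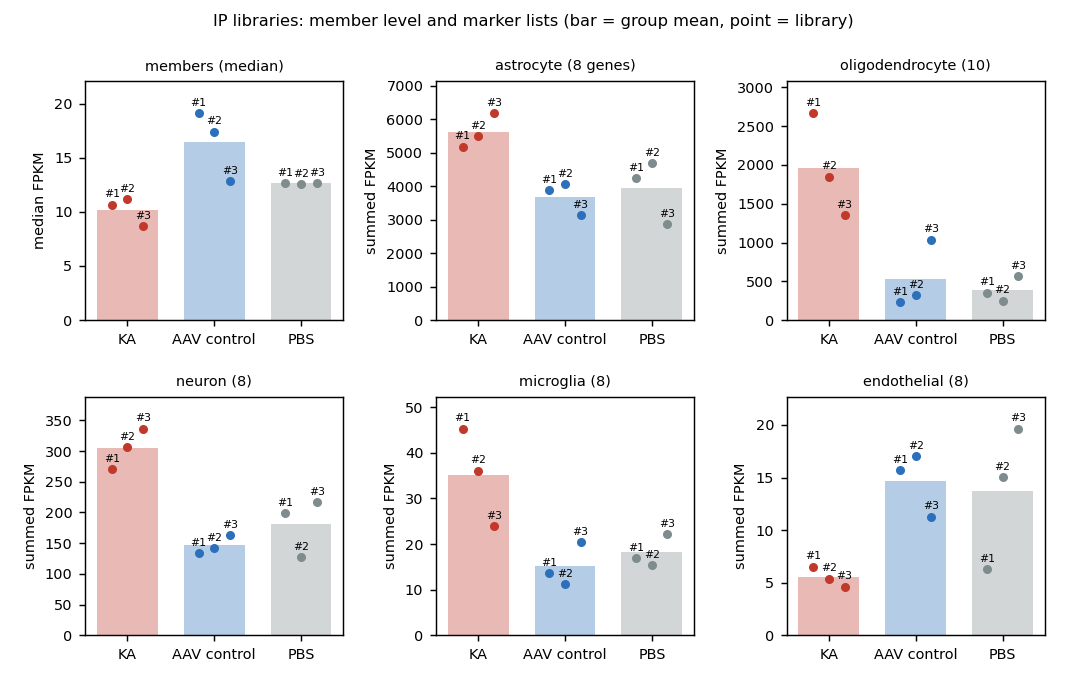
Median FPKM of the 32 members and summed FPKM of 5 marker lists in each IP library, with bars at the group mean of 3 libraries and points labelled by sample number. KA libraries have the lowest member medians, and the highest oligodendrocyte, neuron, microglia and astrocyte sums.

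Other genes of the same pathways were taken from a list of 41, of which 40 were in the tables and 33 were tested in IP against the AAV control. Of these 8 were lower and 4 higher, where 9.74% of all genes were lower and 10.4% higher. Against PBS 7 of 34 were lower and 7 higher, close to the 18.9% and 18.2% of all genes. Their median log2 fold changes were -0.20 and -0.10. Among those lower in both comparisons were Elovl2, the elongase of long polyunsaturated chains (-1.83 ± 0.22 (SE, adjusted p = 0.00196) against the AAV control), Acsl3, an acyl-CoA synthetase (-1.59 ± 0.30 (SE, adjusted p = 0.0102)), and Acss2, the cytosolic acetyl-CoA synthetase (-1.50 ± 0.16 (SE, adjusted p = 0.00107)). Elovl2 stood at 3.08, 3.49 and 2.83 FPKM in KA IP, 14.3, 13.4 and 7.597 in AAV control IP and 8.78, 7.66 and 7.66 in PBS IP, Acsl3 at 42.5, 45.6 and 24.1 FPKM in KA IP, 147, 134 and 70.3 in AAV control IP and 69.03, 83.8 and 69.7 in PBS IP and Acss2 at 1.94, 1.91 and 1.39 FPKM in KA IP, 5.2, 5.04 and 5.02 in AAV control IP and 4.21, 4.34 and 4.13 in PBS IP. All 3 had KA values below every control value.

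Among those higher in both comparisons were Acsl4, an acyl-CoA synthetase for arachidonate, at 7.18, 6.999 and 4.68 FPKM in KA IP, 2.16, 2.67 and 1.21 in AAV control IP and 1.86, 1.34 and 2.49 in PBS IP (1.71 ± 0.26 (SE, adjusted p = 0.00472) against the AAV control), and Abca1, a cholesterol exporter, at 14.7, 11.4 and 7.69 FPKM in KA IP, 5.56, 5.90 and 4.40 in AAV control IP and 3.84, 3.83 and 4.81 in PBS IP (1.14 ± 0.21 (SE, adjusted p = 0.00987)). The KA values of both exceeded every control value. Abca1 was picked out after its values were seen.

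**Figure D5:**
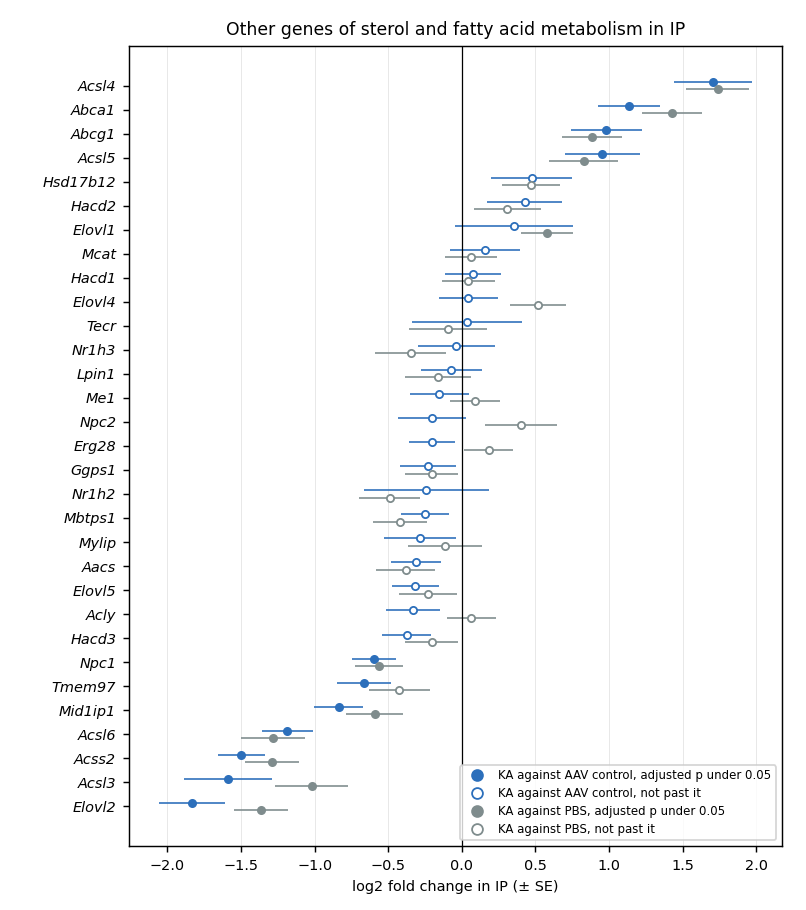
Log2 fold changes in IP with SE bars for the other pathway genes reported here that were tested in both comparisons, KA against AAV control in blue and against PBS in grey, filled for an adjusted p under 0.05 and ordered by the first. Elovl2, Acsl3 and Acss2 lie at the low end and Acsl4 and Abca1 at the high end with either baseline.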

How the data were processed

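RNA of IP and input samples was sequenced from 3 pooled homogenates per group, 18 libraries in all. The submitters' processing notes name STAR, featureCounts, edgeR and the mm10 build, with versions not given in the sources used here. The authors deposited whole-number counts per gene symbol without normalization, and FPKM values. The library kit does not mark strand, so reads of overlapping genes on opposite strands are not separated.

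Tests on the counts used the quasi-likelihood functions of edgeR 4.0.16 under R 4.3.3, with TMM factors and Benjamini-Hochberg adjustment over all genes tested, on genes above 1 FPKM in all libraries compared. The study called DEGs at a 2-fold change as well, which is given as an alternative. In all, 11 comparisons were fitted, with 6 libraries each for 2 groups or kinds and 12 for the difference of KA effects. Alternatives were DESeq2 1.42.0, limma-voom (limma 3.58.1), other size factors, no FPKM filter, a replicate or homogenate block, sequencing run, all 18 libraries in 1 fit and each replicate left out. Simulated counts were tried for KA against AAV control in IP and for the difference of KA effects with the AAV control as baseline. They were also tried for IP against input in KA, there with the homogenate as a block. The other comparisons were not simulated, and the simulated counts held no run effect and no link between IP and input. Members, gene lists and markers were chosen with earlier results of these data known. The text names all members, gives values per sample for those called, and takes from the other pathway genes at most the 5 with the largest change called in KA against AAV control IP, with Apoe and Aldh1l1. Some genes that the rule names are not reported here.

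IP and input of the same number were taken to come from 1 homogenate, since the sample titles give only replicate numbers. Their residuals after removing group means correlated at 0.493, 0.4796 and 0.648 in KA and 0.4976, 0.7248 and 0.7519 in the AAV control. In PBS the correlations were lower, at 0.3265, 0.1551 and 0.2247. Across groups, residuals of same-numbered libraries were correlated after removing group means. KA with AAV control gave 0.348, 0.530 and 0.551 in IP and 0.352, 0.444 and 0.550 in input, while KA with PBS gave 0.106, -0.294 and -0.07 in IP. Libraries of different numbers were not correlated across groups. Same-numbered KA and AAV control libraries also share a run, so matched pairs and a shared run cannot be told apart here. The reported tests have no block, as in the study, and blocked fits are alternatives. Libraries of a group differed by at least 4.48 times the variance of counting noise, so none was counted as a duplicate. Coordinates come from GENCODE vM21 on GRCm38, the assembly of mm10, and sequences from RefSeq.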

Additional observations from a re-analysis of the deposited data

Results flagged for a closer look

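The difference between the KA effect in IP and that in input passed the test for 18 members with the AAV control as baseline and for 17 with PBS. With the AAV control as baseline, edgeR's quasi-likelihood test gave log2 differences (effect in IP minus effect in input) of -1.81 for Msmo1, -1.78 for Hmgcs1, -1.74 for Idi1, -1.70 for Mvd and -1.69 for Mvk. They were -1.65 for Fads2, -1.63 for Fads1, -1.54 for Cyp51, -1.48 for Sqle, -1.47 for Soat1 and -1.46 for Scd1. Smaller values were -1.43 for Lss, -1.28 for Fdft1, -1.14 for Sc5d, -1.01 for Acat2, -1.01 for Insig1 and -0.96 for Pmvk. Elovl6, with 0.66, was the member with a higher effect in IP. Of 8 astrocyte markers, 6 were lower and 0 higher in the same contrast, with a median log2 difference of -1.32, against -1.08 for the members. Oligodendrocyte, neuronal and microglial marker sums in IP moved with the KA group as well, and their part in these differences was not tested.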

How the results depend on the processing

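Over the 11 comparisons 152 single member values were called. Under the alternatives for them, 1469 values kept direction and call, 182 kept direction and missed the threshold, and 0 reversed. The 2-fold requirement left 8 members called in KA against PBS IP, 1 in KA against PBS input and 3 in IP against input of the KA group. In KA against AAV control input, the replicate block gave 2 members, sequencing run as covariate 5 and run 1 alone, added after the data were seen, 15. All 18 libraries in 1 fit gave 2 in KA against PBS input. The median IP to input ratio was 1.33 in KA, 3.19 in the AAV control and 2.47 in PBS from TMM-normalized CPM. With 1 replicate left out, the members called numbered 14 to 24 for KA against AAV control and 13 to 19 for KA against PBS in IP, 0 to 6 for PBS against AAV control in IP, and 0 to 8, 3 to 15 and 0 to 14 for the same 3 in input. For IP against input, 16 to 32 members were called in the AAV control, 25 to 29 in PBS and 3 to 19 in KA. The shares of all genes were 16.1% to 62.7%, 40.8% to 49.8% and 13.2% to 47.9%. For the difference of KA effects, 12 to 24 members were called with the AAV control and 13 to 17 with PBS as baseline. There 5.48% to 22.1% and 13.8% to 22.1% of all genes were called. The causes were not tested.

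The replicate block, used because KA and AAV control libraries with the same number deviated together, called 26 members in KA against AAV control IP, where the unblocked fit called 19. In the differences of KA effects the block was the homogenate, which ties IP to its input and does not link KA with a control. It called 27 and 23 there, where the unblocked fits called 18 and 17. Blocking changed other counts of members by less than 1.5 times except in KA against AAV control input, above. Over all genes tested in KA against AAV control IP, 1012 were higher and 948 lower. The number called was 3356 under the replicate block, 3914 with run as covariate and 4823 within run 1. It was 3933 without the FPKM filter and 2968 with all 18 libraries in 1 fit. With 1 replicate left out it was 843 (without KA #2) to 3369 (without AAV control #3). KA and PBS libraries share only a number, and the replicate block there gave 19 members in IP and 7 in input. The shares of all genes called were 31.3% and 28.4%.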

Other observations

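Of 35 other pathway genes tested in input, 3 (Abca1, Elovl5 and Npc2) were higher in KA and 0 lower against the AAV control, where 3.54% of all genes were higher, and 9 were higher and 0 lower against PBS, where 15.5% were. The genes named here were chosen after their values were seen. Npc2, a lysosomal cholesterol carrier, was at 61.1, 50.2 and 36.5 FPKM in KA input, 18.9, 15.8 and 12.9 in AAV control input and 11.02, 10.3 and 12.8 in PBS input, with log2 differences of 1.63 ± 0.19 (SE, adjusted p = 0.00345) against the AAV control and 2.10 ± 0.15 (SE, adjusted p = 4.43e-06) against PBS by edgeR. Every KA value of Npc2 exceeded every control value. Abca1, the cholesterol exporter, was at 6.90, 5.83 and 5.37 FPKM in KA input, 1.84, 2.10 and 1.80 in AAV control input and 1.78, 1.87 and 1.98 in PBS input, with 1.66 ± 0.14 (SE, adjusted p = 9.77e-04) and 1.67 ± 0.11 (SE, adjusted p = 2.13e-06). Elovl5, an elongase of polyunsaturated chains, was at 18.1 to 22.6 FPKM in KA input, 12.1 to 15.3 in AAV control input and 14.7 to 15.2 in PBS input, with 0.58 ± 0.13 (SE, adjusted p = 0.0423) and 0.43 ± 0.10 (SE, adjusted p = 0.00895). In IP, Npc2 passed neither test (-0.20 ± 0.23 and 0.40 ± 0.24), while microglial markers summed to 698 to 1231 FPKM in KA input against 24.0 to 45.3 in KA IP, and their part in the input values was not tested.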
